A study of Homo sapiens with 6 samples.

Results

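The genes described here code for the mitochondrial ribosome and for the machinery that carries proteins into mitochondria. They comprise every gene of the array whose single platform symbol starts with MRPL, MRPS, TIMM or TOMM, each read from its brightest probe set (by the mean of 6 arrays). There were 100 such genes among 19775. A further 10 probe sets carry a symbol of this kind together with the symbol of another gene and are given separately. The arrays, Affymetrix Human Genome U133 Plus 2.0, were hybridized with RNA of MDA231-LM2 cells, which form metastases in the lung and derive from MDA-MB-231, an established human line of breast cancer. For oncospheres, floating clusters that form when cells cannot attach, 3 cultures were kept for 4 days on ultra-low adhesive plates in HuMEC medium without serum, to which EGF (20 ng/ml), bFGF (10 ng/ml), insulin (5 μg/ml) and 2% B27 were added. For the monolayer, 3 attached cultures were grown in DMEM GlutaMAX that held 10% fetal bovine serum, and RNA was taken 48 h after a change of medium. All cultures came from the same line. Attachment, medium and serum differed together between the groups, so their parts in a difference cannot be told apart. The whole time in culture is not given for the monolayer and may have differed too. The comparison asked which RNAs set spheres apart from attached cells, as part of work on stress signaling through JNK in metastasis.

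Mitochondria keep a small genome and translate its messages, which code for core subunits of the respiratory chain, on ribosomes of their own. All proteins of these ribosomes are coded in the nucleus, made in the cytosol and imported. Precursors cross the outer membrane through the TOM complex, and the TIM23 and TIM22 complexes of the inner membrane pass on proteins with a presequence and carrier proteins, while small TIM chaperones guard hydrophobic precursors in the space between the membranes. The amount of this machinery is known to follow growth and the cell's demand for respiration.

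The arrays of both groups had like brightness, with a median intensity per array between 112.6 and 114.1 and a lowest value between 48.0 and 51.0. The deposited values had already been normalized by the authors, so this likeness does not show how alike the arrays were before. An intensity is the brightness of a probe set on a linear scale and cannot be compared between probe sets, and a log2 change of -1 is a halving. Of genes known to be expressed in the parent line, VIM averaged 20819 in oncospheres and 20145 in monolayer. CD44, EGFR and CAV1 were also far above the array median. Of these 4 genes, EGFR and CAV1 were called lower in oncospheres, and the widest decrease among them was -0.78 on the log2 scale. CDH1, ESR1 and PGR, known to be low in that line, had group means between 70.7 and 130.3, whereas EPCAM (443.9 in oncospheres, 560.9 in monolayer) and ERBB2 (399.1 and 342.3) lay above the array median. RNA was taken from whole cultures, so that fewer cells of a kind and less RNA per cell cannot be told apart.

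In oncospheres, RNA of the mitochondrial ribosome and of protein import was lower almost throughout. Of the 100 genes, 78 fell, 0 rose and 22 were not called (limma, Benjamini-Hochberg adjusted p below 0.05). Over all 19775 genes, 17.5% fell and 17.3% rose by the same test. The median log2 change of the 100 genes was -0.46, which corresponds to 72.8% of the monolayer level, against -0.02 over all genes, and 97 of the 100 changes were negative. The decreases were of moderate size. The 78 genes that fell kept between 51.0% and 86.7% of their monolayer level, and 28 fell by at least 1.5-fold, a change that 5.6% of all genes met in that direction. In 86 genes every oncosphere array lay below every monolayer array, which held for 24.6% of all genes. Only 2 genes, TIMM23 and the pseudogene MRPL45P2, were represented by a probe set dimmer than the array median. With dim probe sets left out before the fit, 79 of 98 genes were lower, against 27.8% of the genes that remained.

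**Figure D1:**
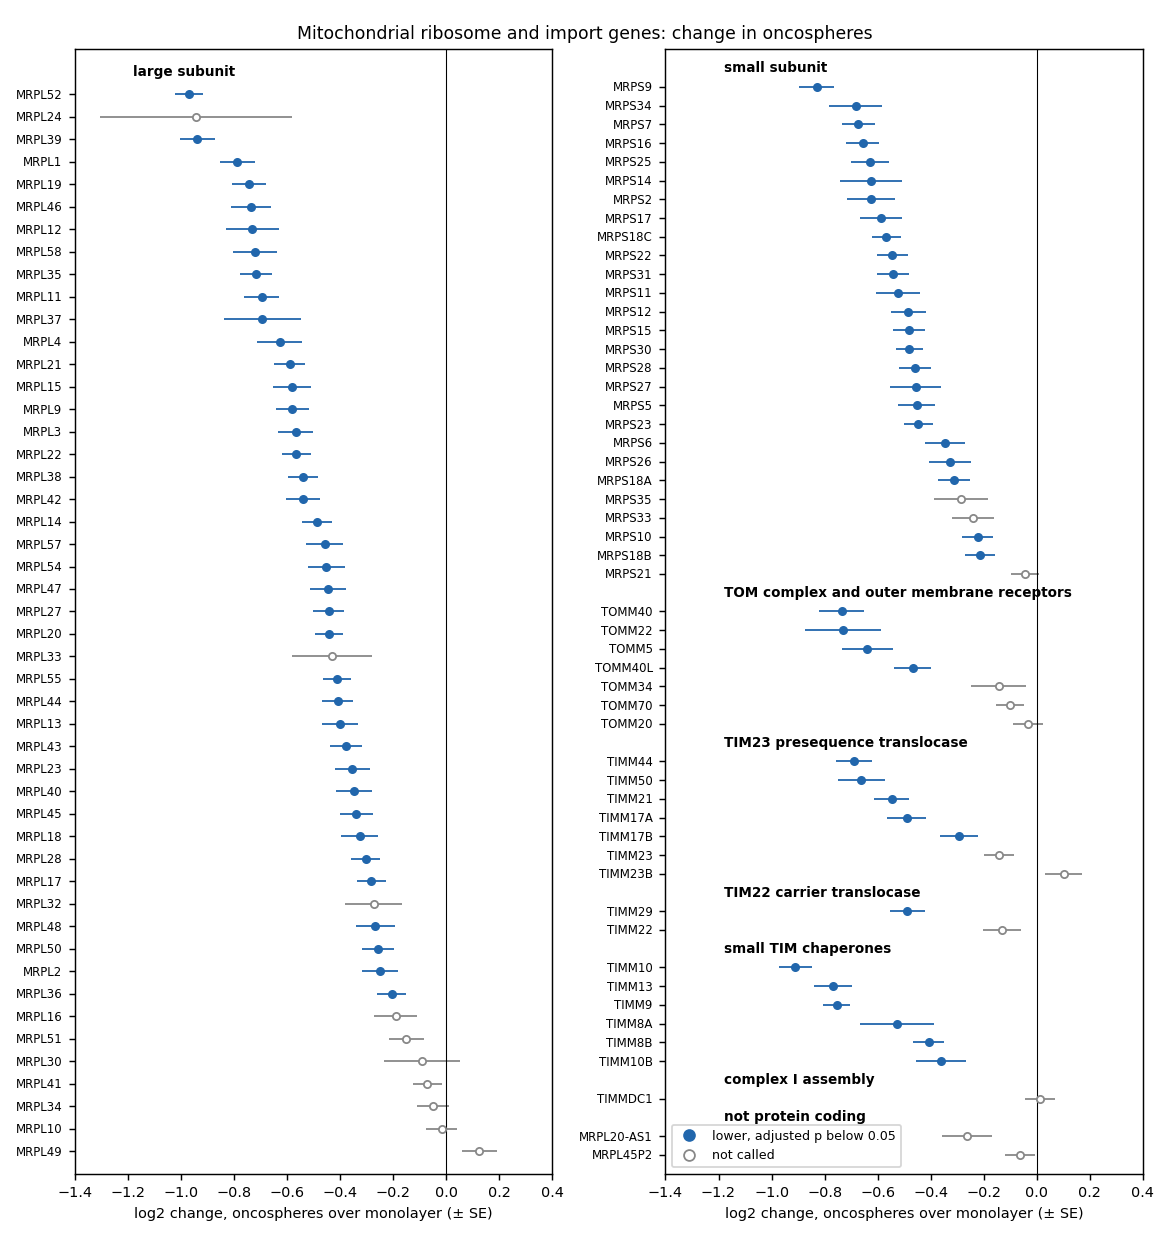
Log2 change of each of the 100 genes, oncospheres over monolayer, with its standard error, grouped by role. Filled points passed the test (78 genes, all lower) and open points did not (22 genes); the changes ran between -0.97 for MRPL52 and 0.12 for MRPL49.

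The shift was present on each array. Against the monolayer mean of each gene, the median deviation over the 100 genes was -0.49, -0.44 and -0.45 on the log2 scale on the oncosphere arrays, and -0.02, 0.04 and -0.02 on the monolayer arrays. Oncosphere culture 2 was the highest of its group in 56 of the 100 genes, and monolayer culture 2 the highest of its group in 67. Both gaps were small beside the distance between the groups. A few genes stood out by 1 array. MRPL24, TOMM22 and TIMM8A were brightest in monolayer culture 1 by a wide margin, and their values are given without it below.

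**Figure D2:**
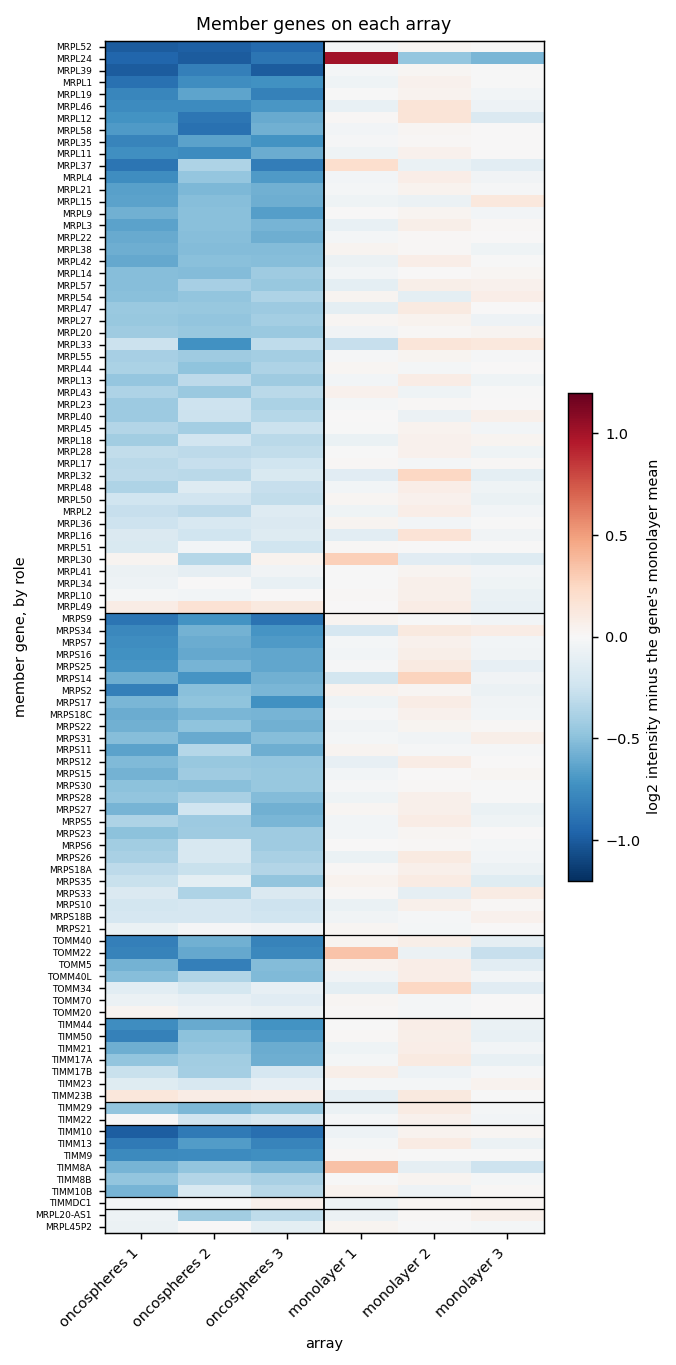
Log2 intensity of each gene on each array minus the mean of its 3 monolayer arrays (colour), with the genes in rows by role and the arrays in columns. The 3 oncosphere columns are blue for most genes, with array medians of -0.49, -0.44 and -0.45, and the dark red cell is MRPL24 in monolayer culture 1.

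Nuclear genes of mitochondrial proteins are known to be driven by a small set of transcription factors, among them NRF1, the ETS factor GABP and YY1, so the RefSeq promoters of the genes (GRCh38.p14, 250 bases before to 50 after the start) were searched for 3 motifs on both strands. The letters searched were GCGCATGCG for NRF1, CCGGAAGT for ETS factors and AAGATGGCG for YY1. The NRF1 letters are nearly the same on both strands, so that neighbouring matches may overlap, whereas no match of 1 motif overlapped a match of another in these genes. Of the 100 genes, 89 matched a promoter. The YY1 letters stood in 14 of the 89 (15.7%), against 1.75% of all 35116 promoters, and in 10 of these 14 they lay after the start. The ETS letters stood in 16 (17.98%, against 4.14%), and the NRF1 letters in 4 (4.49%, against 1.92%). At least 1 of the 3 motifs was found in 31 of the 89 promoters (34.8%), against 7.33% of all. Each gene here gave a single promoter, whereas the whole set was not reduced to single promoters, coding genes or expressed genes. The shares are therefore not like for like. Among genes that fell, 13 of 69 promoters held the YY1 letters and 11 of 69 the ETS letters. Among genes that were not called, 1 of 20 held the YY1 letters and 5 of 20 the ETS letters. These are matches of letters and do not show that a factor was bound. The 120 bases before the start are shown for 6 genes, 5 that fell and TOMM20, which was not called, as examples of each motif, with matches that lie wholly before the start in capitals. They are MRPL52 (chr14:22829767-22829886, plus strand, YY1 at 98 and 64 bases before the start), TIMM10 (chr11:57530755-57530874, minus strand, ETS at 13), MRPS34 (chr16:1773135-1773254, minus strand, ETS at 20), MRPL22 (chr5:154940953-154941072, plus strand, NRF1 at 24), TOMM40L (chr1:161225940-161226059, plus strand, YY1 at 53) and TOMM20 (chr1:235128838-235128957, minus strand, ETS at 22), each read 5′ to 3′ on the strand of its gene.
MRPL52: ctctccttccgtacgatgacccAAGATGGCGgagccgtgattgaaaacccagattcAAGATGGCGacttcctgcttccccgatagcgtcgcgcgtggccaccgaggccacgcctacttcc
TIMM10: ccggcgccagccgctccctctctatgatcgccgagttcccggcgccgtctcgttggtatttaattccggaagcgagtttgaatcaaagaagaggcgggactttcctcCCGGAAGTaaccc
MRPS34: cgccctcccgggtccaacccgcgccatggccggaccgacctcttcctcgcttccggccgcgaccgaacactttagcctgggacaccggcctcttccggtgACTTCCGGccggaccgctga
MRPL22: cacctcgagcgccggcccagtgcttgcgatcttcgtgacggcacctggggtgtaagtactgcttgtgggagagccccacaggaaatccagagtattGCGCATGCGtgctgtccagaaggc
TOMM40L: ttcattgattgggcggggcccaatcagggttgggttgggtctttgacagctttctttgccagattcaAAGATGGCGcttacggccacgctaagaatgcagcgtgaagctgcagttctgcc
TOMM20: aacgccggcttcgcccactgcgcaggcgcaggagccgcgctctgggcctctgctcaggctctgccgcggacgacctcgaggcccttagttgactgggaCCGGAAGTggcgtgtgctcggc

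The large subunit, which joins amino acids into a chain, accounted for 48 of the genes. Of these 38 fell and 10 were not called, with a median log2 change of -0.44, and those that fell changed by between -0.97 and -0.21. MRPL52, a subunit found only in mitochondrial ribosomes, had intensities of 1589, 1605 and 1664 in oncospheres, against 3114, 3230 and 3171 in monolayer. The groups were far apart, with oncospheres at 51.0% of the monolayer level (log2 change -0.97 ± 0.05 SE, adjusted p = 1.12e-05), and its promoter is the one with both YY1 matches above. MRPL39, likewise without a bacterial counterpart, measured 818.1, 922.0 and 817.3 in oncospheres and 1608, 1655 and 1631 in monolayer (-0.94 ± 0.07, adjusted p = 3.16e-05). MRPL1, a homologue of the bacterial protein L1 at the site where spent tRNA leaves, measured 1098, 1215 and 1236 in oncospheres and 1966, 2118 and 2036 in monolayer (-0.79 ± 0.07, adjusted p = 7.93e-05). MRPL19 measured 548.8, 608.5 and 540.1 in oncospheres and 940.2, 970.4 and 926.0 in monolayer (-0.74 ± 0.06, adjusted p = 9.21e-05). In none of these 4 genes did the groups overlap. The other probe set of MRPL39, with 81.1, 81.5 and 79.0 in oncospheres and 70.9, 78.6 and 71.9 in monolayer, was not called (0.13, adjusted p = 0.177).

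Other large subunit genes of known function fell to a lesser degree. MRPL12, a homologue of the stalk protein that recruits translation factors, averaged 1767 ± 159 in oncospheres and 2938 ± 340 in monolayer (SD, n = 3 each), a log2 change of -0.73, and its other probe set was not called (0.0045, adjusted p = 0.979). MRPL58, a peptidyl-tRNA hydrolase that frees stalled ribosomes, averaged 1182 ± 129 in oncospheres and 1938 ± 36.6 in monolayer, a log2 change of -0.72. MRPL45, which holds the ribosome at the inner membrane, averaged 803.5 ± 42.3 in oncospheres and 1015 ± 26.2 in monolayer, a smaller change of -0.34. MRPL46 and MRPS11, 1 gene of each subunit, lie head to head on chromosome 15 with their RefSeq starts 320 bases apart. They changed by -0.74 and -0.52, and both fell.

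The small subunit, which reads the message, was measured by 27 genes, of which 24 fell and 3 were not called, with a median log2 change of -0.48. The grouping follows the symbols, although the products of MRPS30 and MRPS18A are known to sit in the large subunit. MRPS9 had intensities of 406.3, 454.7 and 403.8 in oncospheres, against 766.5, 745.0 and 733.6 in monolayer (-0.83 ± 0.07, adjusted p = 5.64e-05). MRPS34, a protein of mitochondrial ribosomes with no bacterial counterpart, measured 652.6, 755.2 and 683.9 in oncospheres and 970.2, 1210 and 1189 in monolayer (-0.68 ± 0.10, adjusted p = 0.00116). MRPS7, a homologue of the bacterial protein S7 in the head of the subunit, measured 1099, 1223 and 1147 in oncospheres and 1815, 1910 and 1802 in monolayer (-0.67 ± 0.06, adjusted p = 0.000124). MRPS16 measured 1539, 1662 and 1655 in oncospheres and 2492, 2680 and 2482 in monolayer (-0.66 ± 0.06, adjusted p = 0.000135). All oncosphere values of these 4 genes lay below all monolayer values. The other small subunit genes that fell changed by between -0.63 for MRPS25 and -0.21 for MRPS18B. The other probe sets of MRPS25 changed by 0.0086 and 0.12 and were not called (adjusted p = 0.961 and 0.238). The call on MRPS18B was lost without oncosphere culture 1, oncosphere culture 3 or monolayer culture 3 (adjusted p = 0.0556, 0.0679 and 0.0712). Among the related genes MRPS18A, MRPS18B and MRPS18C the log2 changes were -0.31, -0.21 and -0.57, and all 3 fell, whereas the difference between them was not tested. The genes of both subunits together came to 75, of which 62 fell.

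Of the 7 TOMM genes, which code for the TOM complex, its receptors and the cytosolic TOMM34, 4 fell (median log2 change -0.47 over the 7). TOMM40, the channel of the TOM complex, had intensities of 765.9, 906.7 and 774.3 in oncospheres, against 1388, 1423 and 1256 in monolayer (-0.74 ± 0.09, adjusted p = 0.000369). TOMM40L, its close relative, measured 377.3, 417.9 and 371.4 in oncospheres and 520.4, 567.7 and 524.2 in monolayer (-0.47 ± 0.07, adjusted p = 0.00133). The groups were apart in both, and the promoter of TOMM40L is the one with a YY1 match shown above. TOMM22, the central receptor that also holds the complex together, measured 1140, 1299 and 1164 in oncospheres and 2525, 1895 and 1647 in monolayer (-0.73 ± 0.14, adjusted p = 0.00565). The value of monolayer culture 1 was the highest, and without that array the log2 change was -0.56 (adjusted p = 0.00545). TOMM5, a small subunit of the complex, measured 3785, 3173 and 3907 in oncospheres and 5793, 5952 and 5135 in monolayer (-0.64 ± 0.10, adjusted p = 0.00137), with no overlap.

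The receptors that first bind a precursor were not called by their brightest probe sets. TOMM20, the receptor for presequences, measured 6562, 6168 and 6114 in oncospheres and 6492, 6326 and 6443 in monolayer, so that the groups overlapped (-0.03 ± 0.06, adjusted p = 0.743). Its other probe set had a log2 change of -0.23 and was called lower (adjusted p = 0.0420), but not in 4 of the 6 fits with 1 array left out (without oncosphere culture 1 or 2 and without monolayer culture 1 or 3, adjusted p between 0.0914 and 0.129). TOMM70, the receptor for carriers, measured 1588, 1559 and 1513 in oncospheres and 1692, 1634 and 1671 in monolayer (-0.10 ± 0.05, adjusted p = 0.226), whereas its dimmer probe set measured 700.0, 856.6 and 744.3 in oncospheres and 1282, 1428 and 1365 in monolayer (-0.83 ± 0.08, adjusted p = 0.000208). The probe sets of TOMM70 thus differ in the size of the change, and which follows the transcript was not tested. TOMM34, a cytosolic cochaperone of import, averaged 1346 ± 58.0 in oncospheres and 1498 ± 232 in monolayer and was not called (adjusted p = 0.382).

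**Figure D3:**
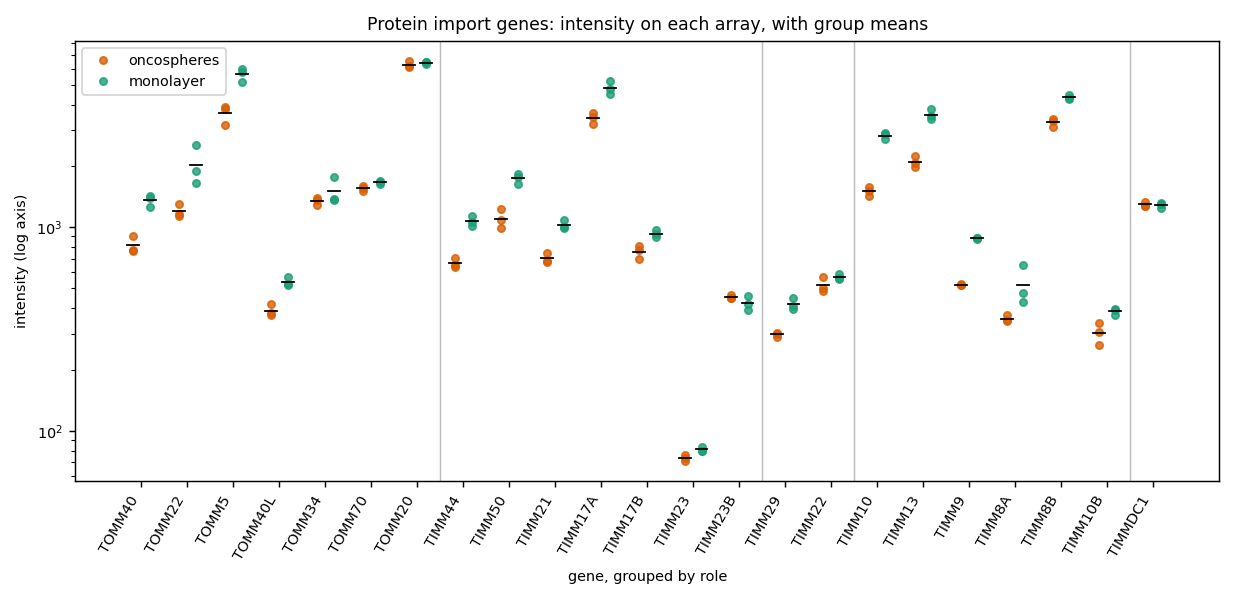
Intensity of each protein import gene on each array (points, log axis) with the mean of its group (bars), oncospheres left of monolayer for each gene and vertical lines between roles. TIMM10, TIMM13 and TIMM9 show the widest gaps among small TIM chaperones, TOMM20 overlaps between groups, and TOMM22 and TIMM8A have 1 high monolayer point.

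In the inner membrane, 5 of the 7 genes of the TIM23 presequence translocase fell (median -0.49). TIMM44, which ties the import motor to the channel, had intensities of 637.8, 702.3 and 650.0 in oncospheres, against 1064, 1131 and 1013 in monolayer (-0.69 ± 0.07, adjusted p = 0.00016). Its second probe set had a wider log2 change of -1.13. TIMM50, the receptor of the complex, measured 990.7, 1234 and 1083 in oncospheres and 1754, 1828 and 1638 in monolayer (-0.66 ± 0.09, adjusted p = 0.000798). TIMM21, which links the complex to TOM and to the respiratory chain, measured 683.8, 745.2 and 678.1 in oncospheres and 988.5, 1087 and 1004 in monolayer (-0.55 ± 0.07, adjusted p = 0.000482). The groups did not overlap in any of these, although the other probe set of TIMM50 was not called (-0.09, adjusted p = 0.317). Of the paired channel subunits, TIMM17A measured 3465, 3621 and 3224 in oncospheres and 4761, 5209 and 4528 in monolayer (-0.49 ± 0.07, adjusted p = 0.00148), and TIMM17B changed by -0.29 (adjusted p = 0.0168). A second bright probe set of TIMM17A measured 2504, 2374 and 2469 in oncospheres and 2523, 2808 and 2331 in monolayer, with overlapping groups and no call (-0.06, adjusted p = 0.660). Without monolayer culture 1 the call on TIMM17B was lost (adjusted p = 0.0632).

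The channel itself was measured with less certainty, because TIMM23 and TIMM23B are near-identical copies. The single probe set that carries only the symbol TIMM23 was dim, with 73.5, 71.1 and 75.8 in oncospheres and 79.9, 80.0 and 83.7 in monolayer (-0.14 ± 0.06, adjusted p = 0.100). That of TIMM23B changed by 0.10 (adjusted p = 0.353). The 3 probe sets that carry both symbols were far brighter and were all called lower, with log2 changes of -0.63, -0.45 and -0.51. On the brightest, the intensities were 3902, 3517 and 3491 in oncospheres and 5356, 4941 and 5220 in monolayer, with no overlap. The copies cannot be told apart by these probe sets.

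The TIM22 carrier translocase was measured by TIMM29 and TIMM22. TIMM29, a subunit of the human complex, had intensities of 300.2, 287.4 and 303.9 in oncospheres, against 395.7, 447.1 and 408.9 in monolayer (-0.49 ± 0.07, adjusted p = 0.000794). TIMM22, its channel, was not called by its brightest probe set (-0.13 ± 0.07, adjusted p = 0.239), while both others were called lower, with changes of -0.29 and -0.25. The small TIM chaperones were the one group in which every gene fell, 6 of 6, with a median log2 change of -0.64. TIMM10, which forms with TIMM9 the ring that escorts carriers, had intensities of 1420, 1566 and 1506 in oncospheres, against 2700, 2891 and 2851 in monolayer (-0.91 ± 0.06, adjusted p = 2.79e-05). Its second probe set changed by -0.96. TIMM9 measured 517.9, 522.0 and 528.1 in oncospheres and 888.0, 876.7 and 880.0 in monolayer (-0.75 ± 0.05, adjusted p = 2.75e-05). Both partners of the ring were thus clearly apart between the groups, with little spread within either.

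TIMM8A and TIMM13 form a second ring of this kind, and loss of TIMM8A is known to cause a syndrome of deafness and dystonia. TIMM13 measured 1984, 2244 and 2061 in oncospheres and 3496, 3816 and 3395 in monolayer (-0.77 ± 0.07, adjusted p = 0.000131), and its other, dim probe set was not called (-0.05, adjusted p = 0.591). TIMM8A measured 347.1, 369.1 and 349.2 in oncospheres and 654.8, 476.1 and 430.4 in monolayer (-0.53 ± 0.14, adjusted p = 0.0227). Monolayer culture 1 was again the highest, and without it the change was -0.35 (adjusted p = 0.0145). The call was lost without oncosphere culture 1 (adjusted p = 0.0681) and without oncosphere culture 3 (adjusted p = 0.0643). TIMM8B changed by -0.41 and TIMM10B, a partner of TIM22, by -0.36 (adjusted p = 0.00114 and 0.0218). The call on TIMM10B was lost without oncosphere culture 3, monolayer culture 1 or monolayer culture 3 (adjusted p = 0.0513, 0.0746 and 0.0670), and its other probe set was not called (0.24, adjusted p = 0.341).

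Genes that did not pass the test were 22. The widest gap among them was MRPL24, with 400.1, 386.5 and 422.2 in oncospheres and 1561, 563.2 and 528.9 in monolayer. The groups did not overlap, but monolayer culture 1 was far brighter than the others, and the change of -0.94 had a standard error of 0.36 (adjusted p = 0.0928). Without that array the change was -0.44 and was called (adjusted p = 0.0051). MRPL33 was not called with all arrays either (-0.43 ± 0.15, adjusted p = 0.0695). There monolayer culture 1 was the lowest of its group (1998, against 2676 and 2638). Without it the change of MRPL33 widened to -0.57 and was called (adjusted p = 0.0270). MRPS33 (-0.24, adjusted p = 0.0594) and MRPS35 (-0.29, adjusted p = 0.0732) were also near the threshold. MRPS33 was called without monolayer culture 2 (adjusted p = 0.0431) and MRPS35 without oncosphere culture 2 (adjusted p = 0.0293). Another 10 of the 22 had changes between -0.10 and 0.10.

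Among these, MRPL10, MRPL34, MRPL41, MRPS21 and TIMMDC1 had changes between -0.07 and 0.01. TIMMDC1, named for its likeness to TIM proteins, is known as an assembly factor of respiratory complex I. MRPL41 was represented on the array by 5 probe sets, of which 0 were called in either direction. MRPL49 was the highest of the 100, with 1851, 1963 and 1895 in oncospheres and 1747, 1857 and 1637 in monolayer. Its groups overlapped (0.12 ± 0.07, adjusted p = 0.215), and it was called higher after cyclic loess normalization (0.21, adjusted p = 0.0453). The remaining genes without a call were MRPL32 (-0.27), MRPL16 (-0.19), MRPL51 (-0.15, called without oncosphere culture 2 at an adjusted p of 0.0364) and MRPL30 (-0.09). The transcripts that make no protein, the antisense RNA MRPL20-AS1 (-0.26, called without oncosphere culture 1 at an adjusted p of 0.0124) and the pseudogene MRPL45P2 (-0.06), were also not called.

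The calls rest on probe sets that differ in kind. Of the representatives, 41 had names ending in _at alone, 55 in _s_at and 4 in _x_at, the _s_at and _x_at kinds being open to signal from related transcripts. A second look was possible in 52 genes with more than 1 probe set. Of their 84 other probe sets, 43 were called lower, 2 higher and 39 not at all. Of the 47 genes that fell and had several probe sets, 27 had a second one that was called lower too. Some of these second calls were lost with 1 array left out, among them that of TIMM8B (adjusted p = 0.0495 with all arrays). Of the 22 genes without a call, 4 (MRPL30, TIMM22, TOMM20 and TOMM70) had another probe set that was called lower. Of the 72 other probe sets of genes that fell, 59 had a negative change.

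In MRPL42 and MRPS30 the probe sets went in both directions. MRPL42 by its brightest probe set measured 2068, 2240 and 2227 in oncospheres and 3008, 3341 and 3153 in monolayer (-0.54 ± 0.07, adjusted p = 0.000462), and a second probe set fell by 0.40 on the log2 scale. The remaining, dimmer one measured 478.9, 451.1 and 468.2 in oncospheres and 376.0, 378.2 and 375.0 in monolayer, and was called higher (0.31 ± 0.05, adjusted p = 0.00316). MRPS30 measured 1226, 1220 and 1259 in oncospheres and 1711, 1745 and 1713 in monolayer by its brightest probe set (-0.48 ± 0.05, adjusted p = 0.00027), and 610.8, 599.5 and 597.9 in oncospheres against 453.9, 447.1 and 483.9 in monolayer by another (0.39 ± 0.06, adjusted p = 0.0013). In both genes the groups were apart on each of these probe sets. The part of the transcript that each probe set reads was not analysed here.

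**Figure D4:**
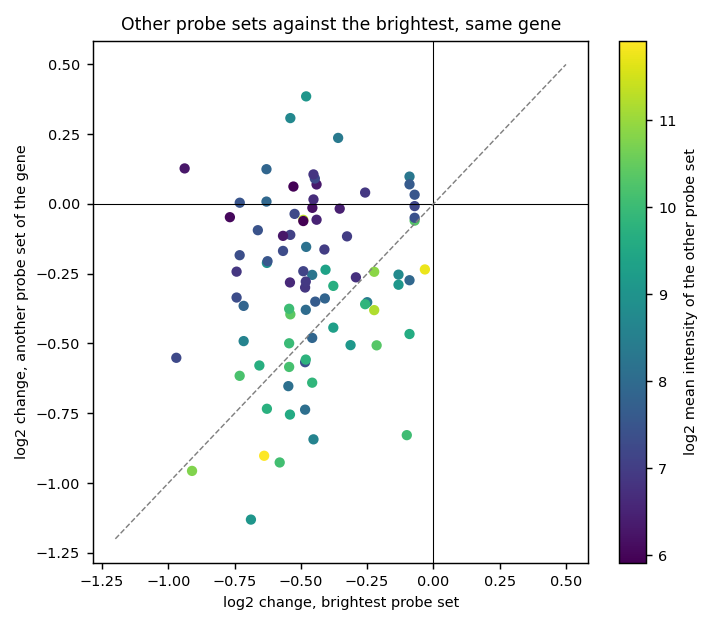
Log2 change of each of the 84 other probe sets (vertical axis) against that of the brightest probe set of the same gene (horizontal axis), oncospheres over monolayer, coloured by log2 mean intensity; the dashed line marks equal change. Of the points, 43 were called lower, and the highest on the vertical axis are MRPS30 (0.39) and MRPL42 (0.31), the 2 called higher.

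Probe sets that share a symbol with another gene went the same way for most ribosomal genes. MRPS24 (-0.45), MRPL53 (-0.23) and a second probe set of MRPL51 (-0.30) were called lower, each with no overlap between groups. The call on MRPL53 was lost without oncosphere culture 1, monolayer culture 1 or monolayer culture 2 (adjusted p = 0.0902, 0.0660 and 0.0789). TOMM7 (0.15) and TOMM6 (-0.04 and -0.14), small subunits of the TOM complex, were not called, and the pseudogene MRPS31P5, which shares its probe set with THSD1, was called higher (0.32, adjusted p = 0.0168). That call was lost without oncosphere culture 2, monolayer culture 1 or monolayer culture 3 (adjusted p = 0.0503, 0.0521 and 0.0535). Of genes listed as ribosomal proteins with other symbols, 5 of 6 were measured and 3 fell, with a median log2 change of -0.31. The 3 were GADD45GIP1, a large subunit protein at the exit of the tunnel (-0.71), CHCHD1 (-0.37) and DAP3, which binds GTP in the small subunit (-0.31). PTCD3 and KGD4 (both -0.10) were not called, and whether KGD4 belongs to the ribosome was not examined here. The call on DAP3 was lost with the mean of all probe sets (-0.10, adjusted p = 0.166) and with _x_at and _s_at probe sets left out (-0.11, adjusted p = 0.174).

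Genes that work with the mitochondrial ribosome were counted by list, against 17.5% lower and 17.3% higher of all genes. The shares called lower were 76.9% for translation factors, 66.7% for tRNA synthetases and 48.1% for assembly factors. Of 13 measured mitochondrial translation factors and mRNA stabilizers, 10 fell and 0 rose (median -0.44). With any 1 array left out, 9 of these fell. SLIRP, which stabilizes mitochondrial messages, measured 3679, 4637 and 3920 in oncospheres and 6642, 6847 and 6961 in monolayer (-0.75 ± 0.09). TUFM, the elongation factor that delivers aminoacyl-tRNA, and TSFM, which recharges it, changed by -0.67 and -0.57 (adjusted p = 0.00484 and 0.000334). Of 18 measured mitochondrial tRNA synthetases and amidotransferase subunits, 12 fell and 2 rose (median -0.39). With any 1 array left out, 10 or 11 of these fell. QRSL1, an amidotransferase subunit, changed by -0.73 and MARS2 by -0.68, whereas HARS2, which charges tRNA with histidine, rose by 0.46, with 860.9, 840.0 and 877.7 in oncospheres and 608.8, 633.7 and 636.5 in monolayer (adjusted p = 0.000435). Of 27 factors of ribosome assembly and rRNA modification, 13 fell and 1 rose (median -0.23). With each array left out in turn, between 9 and 14 of these factors fell. The GTPase MTG1 (-0.74) and the methyltransferase MRM3 (-0.64) fell, and the one that rose was YBEY, an RNA endonuclease (0.31, adjusted p = 0.0164). Its call was lost without oncosphere culture 1 or monolayer culture 1 (adjusted p = 0.0623 and 0.0607).

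Among 28 partners of import, 14 fell and 2 rose (median -0.37), against 17.5% lower and 17.3% higher of all genes. HSPA9, the Hsp70 of the import motor, measured 2573, 2834 and 2448 in oncospheres and 4894, 4766 and 4679 in monolayer (-0.87 ± 0.07, adjusted p = 5.52e-05). PAM16, a subunit of the same motor, measured 294.7, 302.3 and 293.6 in oncospheres and 527.0, 546.7 and 528.3 in monolayer (-0.85 ± 0.05, adjusted p = 1.86e-05). Together with TIMM44 these are 3 parts of 1 motor, and in each the oncosphere values were all below the monolayer values. XPNPEP3, a peptidase that trims imported proteins, rose by 0.44 by its brightest probe set (adjusted p = 0.000824), whereas the mean of its probe sets changed by -0.0431 and was not called (adjusted p = 0.554). Of 15 proteases and quality control genes 6 fell and 0 rose (median -0.17), led by the chaperone TRAP1 (-0.93), the protease LONP1 (-0.71) and the disaggregase CLPB (-0.67).

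**Figure D5:**
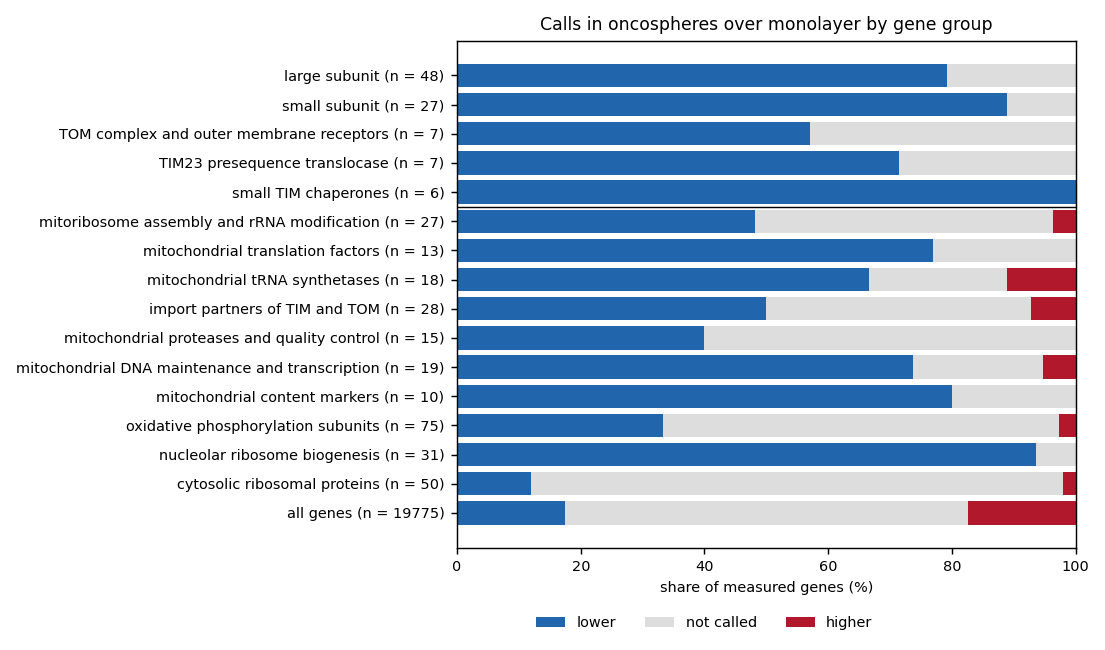
Share of the measured genes of each group that were called lower (blue), higher (red) or not called (grey), in percent, with the number of genes beside each name; groups above the horizontal line are roles of the MRPL, MRPS, TIMM and TOMM genes. Of the 5 groups above the line, the share called lower was 57.1% for TOM genes and 100% for small TIM chaperones, with the others between, against 17.5% of all genes; the TIM22 genes (1 of 2 lower) are not drawn.

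For other gene groups the counts were as follows, against 17.5% lower and 17.3% higher of all genes. With dim probe sets left out, 27.8% of the remaining genes were lower. Of 10 measured markers of mitochondrial content, 8 fell and 0 rose (median -0.28), with IDH3A of the citric acid cycle (-0.95), PHB1 (-0.70) and CHCHD3 (-0.62) in front. CS, the citrate synthase often taken as a measure of mitochondrial mass, changed by -0.19 (adjusted p = 0.0307), and VDAC1, the abundant channel of the outer membrane, by 0.05 (adjusted p = 0.661). The call on CS held only without oncosphere culture 2, and not with any other array left out (adjusted p between 0.0696 and 0.0983). Without oncosphere culture 1, oncosphere culture 3 or monolayer culture 1, 5 of the content markers fell in place of 8. Of 75 nuclear subunits of oxidative phosphorylation, 25 fell (33.3%) and 2 rose, with a median of -0.12. ATP5MC1 (-0.88) and NDUFV3 (-0.71) fell most, and COX5B rose (0.25), which was not called with _x_at and _s_at probe sets left out (0.14, adjusted p = 0.184). The count of 25 was 15 without oncosphere culture 1 and 16 without monolayer culture 3. Of 50 cytosolic ribosomal proteins, 6 fell and 1 rose, with a median of -0.04, and with each array left out in turn between 0 and 5 fell. Of 31 measured genes of ribosome biogenesis in the nucleolus, 29 fell and 0 rose (median -0.61), led by RRP12 (-1.01), MRTO4 (-0.99) and WDR43 (-0.98). With each array left out in turn, between 25 and 28 of the 31 fell. Differences between these groups and the mitochondrial ribosome were not tested.

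Genes that maintain and transcribe mitochondrial DNA numbered 19, of which 14 fell and 1 rose (median -0.42), against 17.5% and 17.3% of all genes. With each array left out in turn, between 10 and 14 of the 19 fell. PNPT1, a nuclease of mitochondrial RNA, measured 504.5, 660.7 and 540.4 in oncospheres and 1252, 1261 and 1168 in monolayer (-1.12 ± 0.10, adjusted p = 0.000102). TFAM, which packs and transcribes the genome, measured 1302, 1550 and 1412 in oncospheres and 2520, 2693 and 2616 in monolayer (-0.88 ± 0.07, adjusted p = 7.98e-05). Both were apart between the groups, while TOP1MT rose by 0.27 (adjusted p = 0.0112), a call that was lost with the mean of all probe sets (0.17, adjusted p = 0.0667).

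Regulators known to drive genes of this kind moved in both directions. Of 9, 5 were lower and 2 higher, against 17.5% lower and 17.3% higher of all genes. With each array left out in turn, between 3 and 5 were lower. MYC, which drives growth and ribosome genes, had intensities of 1607, 1594 and 1627 in oncospheres, against 3213, 3287 and 3260 in monolayer (-1.02 ± 0.05, adjusted p = 7.53e-06). The groups were far apart, and the change was the widest of the 9. The coactivators PPRC1 (-0.50) and PPARGC1B (-0.44), the GABP subunit GABPB1 (-0.33) and YY1 (-0.22) also fell. GABPA, the subunit of GABP that binds the ETS letters, rose instead, with 765.3, 737.8 and 755.8 in oncospheres and 591.2, 500.2 and 447.5 in monolayer (0.56 ± 0.10, adjusted p = 0.00297). PPARGC1A rose by 0.28 at a low intensity (171.9 ± 5.3 in oncospheres and 141.1 ± 1.9 in monolayer). NRF1 (-0.18, adjusted p = 0.326) and ESRRA (-0.03, adjusted p = 0.741) were not called. The call on GABPB1 was lost with monolayer culture 1 or 2 or oncosphere culture 1 or 3 left out (adjusted p between 0.0961 and 0.131), and that on YY1 without oncosphere culture 1 or 3 (adjusted p = 0.0521 and 0.0533). The part of these regulators in the decrease of the ribosome and import genes was not tested.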

How the data were processed

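The authors made the deposited intensities, 1 per probe set and on a linear scale, by robust multi-array averaging, and the submitters' notes name the affy package (version not given in the sources used here). Whether values were rescaled or floored is not stated. The log2 of each intensity was taken. After removal of 62 controls, 54613 probe sets were tested; 41091 had 1 symbol, 1801 several and 11721 none. Oncospheres were compared with monolayer in limma 3.58.1 (R 4.3.3), with empirical Bayes moderation and adjustment after Benjamini and Hochberg over the whole table. The procedure was tested on simulated data with independent noise and far fewer changed probe sets, so that test says little about these arrays. The labels call the 3 samples of each group biological replicates of 1 line. The p-values thus set the difference between groups against the spread between these cultures, and the number of arrays limits the precision.

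The members and gene lists were chosen with earlier results of these data known. The lists hold textbook genes of each function and were described by counts and medians alone. Per role, up to 4 called genes with the largest decrease, up to 2 with the largest increase and genes with probe sets called in both directions were named with values; of each list, up to 3 called genes, with the largest of the less frequent direction as the third; of the regulators, all. Other genes were named after their values were seen. Symbols and chromosomes came from RefSeq (GRCh38.p14). Alternatives were other normalizations, removal of dim probe sets, array weights, a prior with a trend, a block for the replicate number, averages over each gene's probe sets, _x_at and _s_at probe sets left out, other adjustments and thresholds, subtraction of the 5th percentile of each array, current symbols and each array left out. Same-numbered samples of the groups correlated at 0.07, 0.08 and 0.09 in their deviations from the group means and were not treated as pairs. A planned comparison of paralogous proteins was not run.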

Additional observations from a re-analysis of the deposited data

How the results depend on the processing

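The number of genes called lower was 78 of 100 and lay between 73 and 79 after quantile normalization again, cyclic loess, median centring, an intensity trend, array weights, subtraction of the 5th percentile, the mean of all probe sets, current symbols or adjustment over representative probe sets alone. It was 68 at an adjusted p below 0.01 and 28 with a minimum of 1.5-fold. With each array left out in turn it lay between 72 and 79, and 69 genes were called lower with all arrays and in all 6 of these fits. Those that lost the call without 1 array were MRPL2, MRPL36, MRPL48, MRPS10, MRPS18B, MRPS26, TIMM8A, TIMM10B and TIMM17B. With the replicate number as a block 79 were called lower, 77 of them shared (MRPL36 lost its call, and MRPS33 and MRPS35 gained one, at adjusted p = 0.0504, 0.0266 and 0.0150); each sample deviated most like that of its own number, a hint from the data and not from the design.

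Genes called higher were 0 in these fits, except 1 after cyclic loess (MRPL49) and 1 with _x_at and _s_at probe sets left out (MRPL42). Leaving these out left 64 genes, of which 41 were lower, against 15.1% of all genes. There, each read from another, dimmer probe set, the sign turned for MRPL12 (0.0045), MRPL20 (0.07), MRPL39 (0.13), MRPL42 (0.31), MRPS5 (0.11) and TIMM10B (0.24) among genes that had fallen, and for IDH3A (0.0496) and RRP12 (0.13) of the other lists. MRPL23, MRPL35, MRPS14, TIMM50 (-0.09), TIMM13 (-0.05), DAP3 (-0.11) and COX5B (0.14) kept their sign without a call. With the mean of all probe sets the sign turned for XPNPEP3 (-0.0431), and MRPL20, MRPL44, MRPS23, MRPS27, MRPS30 (-0.08), TIMM8A (-0.23), TIMM10B (-0.06), DAP3 (-0.10) and TOP1MT (0.17) lost their calls, while MRPS33, TIMM22 and TOMM70 gained one. After cyclic loess MRPL36, MRPL48, MRPS10, MRPS18B and TIMM17B were no longer called, and after subtraction of the 5th percentile MRPL37, MRPL48, MRPS26, TIMM8A, TIMM10B, CHCHD3, EGFR and EPCAM, while TOMM70 gained a call. The cause was not tested. Over the named genes, 1002 of the alternative values kept direction and call, 33 kept direction alone and 5 turned. Groups of 3 arrays limit the precision of the changes, and unknown rescaling of the values may limit the size of changes of dim probe sets.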
